A study of Mus musculus with 12 samples.

Results

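The 27 genes described here make, load, take up, break down and receive the transmitter GABA in the mouse cortex, or assemble and anchor its receptors. They were taken by gene symbol from a list of names, drawn up with earlier results of these data known, and all 27 were found among the 54232 gene identifiers of the count table. Bulk RNA sequencing was carried out on frozen cortex of 12 C57BL/6J mice aged 12 weeks, 6 wild-type mice and 6 homozygotes for Tbl1xr1Y446C, with 3 females and 3 males of each genotype. The Y446C allele is a missense change in TBL1XR1, a subunit of the NCoR and SMRT corepressor complexes, and models Pierpont syndrome, a developmental disorder with intellectual disability. The labels name no other allele or agent for either genotype. A missense allele leaves no mark in counts per gene, so the genotype labels were not checked against them.

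GABA is the main inhibitory transmitter of the adult cortex. It is made from glutamate by the glutamate decarboxylases GAD67 (Gad1) and GAD65 (Gad2), loaded into vesicles by VGAT (Slc32a1), and acts on GABA-A receptors, which are chloride channels, and on GABA-B receptors, which signal through G proteins. In the cortex GABA neurons are a minority among excitatory neurons, while in the neighbouring striatum nearly all projection neurons use GABA. In bulk tissue, fewer cells of a type and less RNA per cell cannot be told apart.

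Part of the 250 bases upstream of a RefSeq start site is shown for Gad1 and for Gad2. These 2 genes were chosen because they encode the same reaction and, as described for the libraries, did not vary in the same way. Each line gives GRCm38.p6 sequence from RefSeq on the plus strand, 5′ to 3′, outside exons of the GENCODE M21 annotation, with CG dinucleotides in capitals. The Gad1 stretch lies at chr2:70561879-70562041 and the Gad2 stretch at chr2:22622077-22622204. Each stops before the first annotated exon in its window, so the bases next to the RefSeq start are not printed. The Gad1 stretch lies inside the annotated span of Gad1, which starts at 70553072.
Gad1: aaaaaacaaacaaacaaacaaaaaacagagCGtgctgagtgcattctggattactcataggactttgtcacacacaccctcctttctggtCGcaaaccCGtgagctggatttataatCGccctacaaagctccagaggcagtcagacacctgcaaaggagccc
Gad2: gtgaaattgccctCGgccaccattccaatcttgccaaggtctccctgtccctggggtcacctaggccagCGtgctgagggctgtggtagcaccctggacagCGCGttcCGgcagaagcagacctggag
The Gad1 stretch of 163 bases held 4 CG dinucleotides and the Gad2 stretch of 128 bases held 5. The whole windows of 250 bases upstream, which run on into annotated exons and are not printed in full, held 17 for Gad1 and 13 for Gad2, beside a median of 6 over all such windows. The half-site AGGTCA, the core that many nuclear receptors bind, was searched on both strands and was in 0 of these 2 stretches. In the 250 bases upstream of all RefSeq starts it was present in 14.02% of 32851 windows, and in 1 of the 28 windows that matched 23 of the 27 genes, that of Slc6a11. A match or its absence describes these letters only.

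Counts assigned to genes were 21238427 to 32669138 in 11 libraries and 3748515 in female mutant 3. That library also stood apart in the share of mitochondrial counts, 31.62% against 5.231% to 10.378%, and in the number of genes detected, 17349 against 24346 to 26012. It was the highest or the lowest of the 12 libraries for 22 of the 27 genes, and for 79.385% of all tested genes. Male mutant 10 held 61.5 CPM (counts scaled to a common library total, after TMM) of Gabra6, a receptor subunit of cerebellar granule cells, against at most 3.64 CPM in any other library, a gene chosen after its values were seen. The main results are given with and without female mutant 3, and some are also given without both libraries. A count of 0 allows up to 3 counts, which is 0.0861 to 0.1366 CPM in 11 libraries and 1.1616 CPM in female mutant 3, for counting error only. The lowest raw count of any of the 27 genes was 60, for Kctd16 in female mutant 3, and all 27 passed the filter on low counts.

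In wild-type cortex the levels of the 27 genes, as CPM per kb of exon, spanned from 95.7 ± 5.08 (SD, n = 6) for Gabbr1, the ligand-binding subunit of the GABA-B receptor, to 2.24 ± 0.445 for Kctd8, an auxiliary subunit of that receptor. Slc12a5, the chloride exporter KCC2 of mature neurons, followed at 68.8 ± 7.46, and Gabbr2, the G protein-coupling subunit, at 60.7 ± 4.0. The decarboxylase genes were level, with Gad1 at 54.7 ± 3.68 and Gad2 at 54.3 ± 8.64 CPM per kb, while their vesicle transporter gene Slc32a1 was at 22.7 ± 3.14. Among the 9 GABA-A subunit genes in the set of 27, Gabrb2 was highest at 41.0 ± 1.94 and Gabra3 next at 38.5 ± 1.29, with overlapping ranges, and Gabrg1 lowest at 4.01 ± 0.427, close to Gabrg3 at 4.56 ± 0.512. Slc12a2, the chloride importer NKCC1, stood at 13.3 ± 1.60 CPM per kb, below Slc12a5 in every mouse. The wild-type coefficient of variation ran from 3.26% for Aldh5a1 to 19.9% for Kctd8, with a median of 8.89%, beside 8.77% over the 11595 tested genes of at least 5 CPM.

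**Figure D1:**
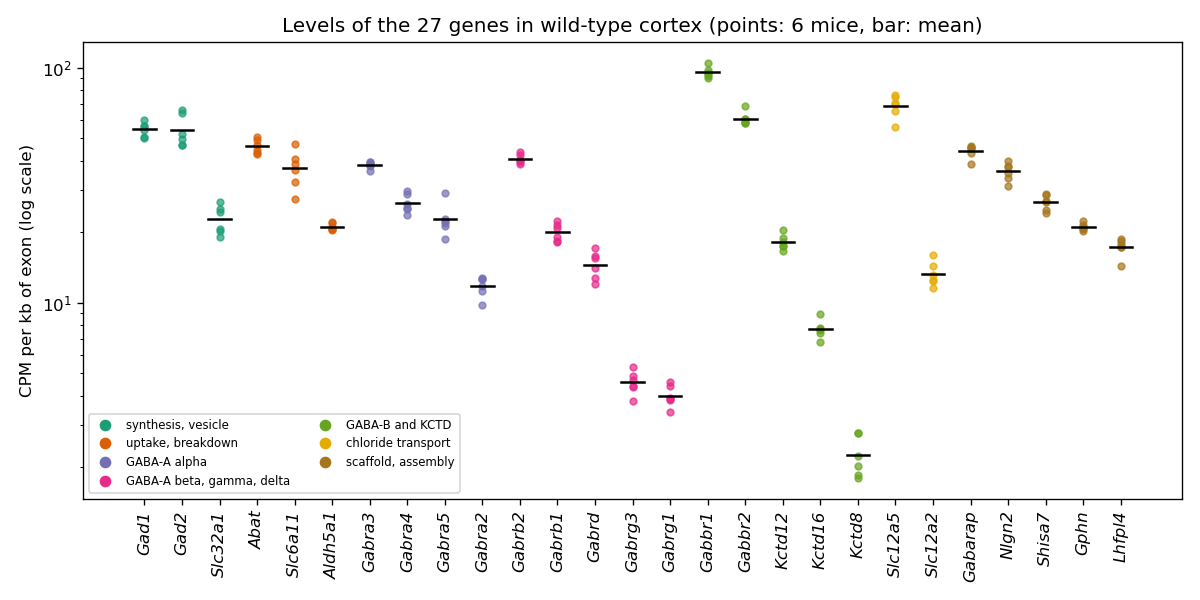
Level of each of the 27 genes in the 6 wild-type libraries, in CPM per kb of exon on a log axis, with points for mice, bars for means and colours for roles. Gabbr1 is highest at 95.7 and Kctd8 lowest at 2.24 CPM per kb, and Gad1 and Gad2 lie side by side.

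Genotype was first compared over both sexes with edgeR's quasi-likelihood test, with sex as a term, in 18016 genes. None of the 27 genes passed a Benjamini-Hochberg adjusted p of 0.05, with adjusted p of 0.950 to 0.998, where 0.00555% of all tested genes (1 gene) did. At an unadjusted p under 0.05 the count was 1 of 27, Gad1, beside 3.96% of all tested genes, and without female mutant 3 it was 2 of 27, Gad1 and Gabra4, beside 7.46%. Without both female mutant 3 and male mutant 10 it was 3 of 27, with Gabrb2 added, beside 1389 of 18266 genes. DESeq2, limma-voom and limma-voom with library weights also called 0 of 27, beside 0.161%, 0.00555% and 0.122% of all tested genes. They had 2, 2 and 3 of 27 at an unadjusted p under 0.05, beside 5.54%, 4.34% and 12.7%. The log2 fold change was positive in 10 genes and negative in 17, with a median of -0.06 against -0.01 over all tested genes. It was negative in 52.398% of all tested genes. Without female mutant 3 the split was 9 and 18 and the median -0.07, against 0.00 over all genes. These p-values measure the spread between mice, 1 library each.

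Gad1, at chr2:70553072-70602014 on the plus strand, showed the smallest p of the 27 genes. Wild-type females held 385, 414 and 456 CPM and wild-type males 387, 433 and 433 CPM. Mutant females held 353, 242 and 322 CPM, the value of 242 being female mutant 3, and mutant males 360.2, 378 and 337 CPM. Every mutant lay below every wild-type mouse, in both sexes, with the closest pair at 378 and 385 CPM. Wild-type mice averaged 418 ± 28.1 CPM and mutants 332 ± 48.1 CPM (SD, n = 6 each), or 350.0 ± 21.6 CPM without female mutant 3. The log2 fold change was -0.34 (SE 0.099) with an edgeR adjusted p of 0.950, and -0.26 (SE 0.062) with an adjusted p of 0.372 without female mutant 3. Gad1 was the only one of the 27 with all 6 mutants below all 6 wild-type mice, an order found in 0.294% of all tested genes, and 0 of the 27 had all mutants above, beside 0.144% of all tested genes.

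Whether Gad1 passed the threshold differed by tool and by library. DESeq2 gave an adjusted p of 0.241 with all libraries and 0.0307 without female mutant 3, an analysis chosen after seeing the data, in which 0.287% of 18461 genes and 1 of the 27 were called. Over the 25 alternatives the log2 fold change of Gad1 stayed between -0.41 and -0.23, and its adjusted p ran from 0.0307 to 0.9998. Leaving out both female mutant 3 and male mutant 10 gave -0.29 (SE 0.065) with an edgeR adjusted p of 0.327. With the level of striatal markers as a covariate it was -0.31 (SE 0.126), adjusted p 0.989 with edgeR.

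Gad2, which supplies GABA mainly at nerve terminals, did not follow the order of Gad1. It was at 291, 276 and 378 CPM in wild-type females and 388, 308 and 275 CPM in wild-type males. Mutant females held 341, 623 and 289 CPM, with 623 in female mutant 3, and mutant males 295, 242 and 238 CPM. The genotypes overlapped widely, and the log2 fold change was 0.04 (SE 0.202) with all libraries and -0.18 (SE 0.114) without female mutant 3. Its sign turned under 9 of the 25 alternatives, 3 of which left out a single library (female mutant 3, or wild-type female 2 or 4). Slc32a1 was 53.1 to 74.8 CPM in wild type and 46.3 to 64.8 CPM in 5 mutants, with 25.2 CPM in female mutant 3. An antisense gene overlaps 24.9% of the Slc32a1 exon bases, and no source used here gives the strand setting of the counting. Its counts may therefore include antisense reads.

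**Figure D2:**
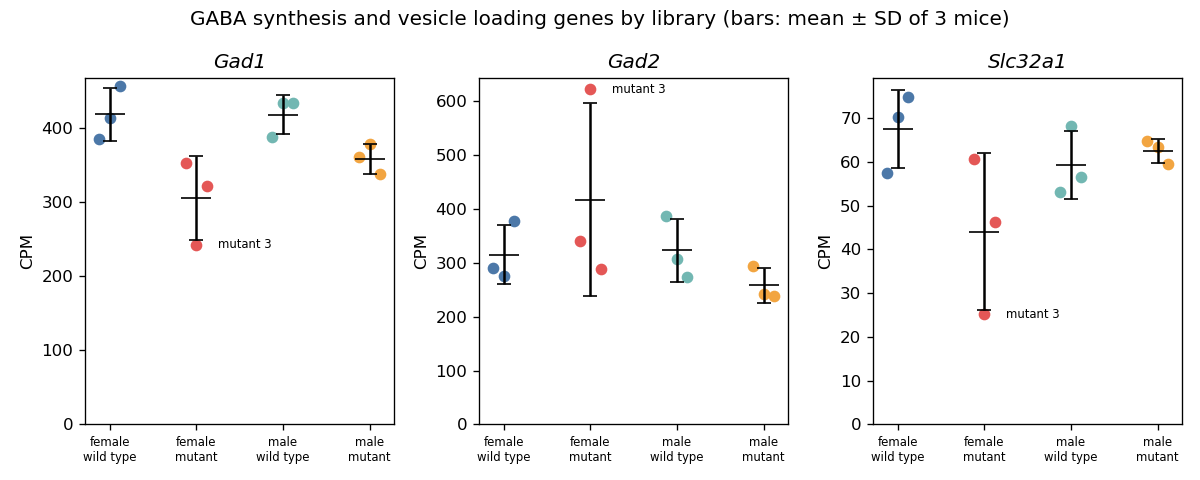
CPM of Gad1, Gad2 and Slc32a1 in each of the 4 groups, with points for mice and bars for mean ± SD of 3 mice. All 6 mutant Gad1 values lie below the lowest wild-type value of 385 CPM, whereas Gad2 and Slc32a1 overlap and female mutant 3 lies at 623 and 25.2 CPM.

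None of the 3 genes of GABA uptake and breakdown passed the test over both sexes, and all 3 had a lower mutant mean. Abat, the transaminase that degrades GABA, was at 365, 383 and 393 CPM in wild-type females and 344, 336 and 334 CPM in wild-type males. Its mutant values were 381, 249 and 288 CPM in females and 353, 345 and 296 CPM in males, within or below the wild-type range. The log2 fold change was -0.17 (SE 0.105, edgeR adjusted p 0.950), and -0.10 (SE 0.075) without female mutant 3. Aldh5a1, which oxidises the succinic semialdehyde that Abat forms, was 115 to 124 CPM in wild type and 100.3 to 122 CPM in mutants. Genes on the opposite strand overlap 17.7% of the Aldh5a1 exon bases, so its counts may include antisense reads. Slc6a11, the astrocytic transporter GAT3, varied most of the 3, from 139 to 239 CPM in wild type and from 77.4 to 252 CPM in mutants, with 77.4 CPM in female mutant 3. Its log2 fold change was -0.05 (SE 0.255) with that library and 0.12 (SE 0.183) without it.

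None of the 9 GABA-A subunit genes passed the test over both sexes, 4 having a positive and 5 a negative log2 fold change. Gabra4, an alpha subunit of extrasynaptic receptors in the striatum and thalamus, was at 154, 153 and 176 CPM in wild-type females and 181, 161 and 144 CPM in wild-type males. Mutant females held 151, 201 and 127 CPM, and mutant males 140.5, 106 and 123 CPM. The highest mutant, at 201 CPM, was female mutant 3, and the other 5 were all at or below 151 CPM. The log2 fold change was -0.21 (SE 0.127, edgeR adjusted p 0.950), and -0.31 (SE 0.086, adjusted p 0.443) without that library. Gabra3, encoded on the X chromosome, was at 150.3, 142 and 151 CPM in wild-type females and 152, 155 and 156 CPM in wild-type males. Mutants were more spread, at 128, 171 and 154 CPM in females and 132, 113 and 159 CPM in males.

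Gabrb1 and Gabra2 had positive log2 fold changes of 0.27 (SE 0.148) and 0.28 (SE 0.185), both with an edgeR adjusted p of 0.950. Gabrb1, a beta subunit, was at 288, 252 and 251 CPM in wild-type females, 309, 263 and 297 CPM in wild-type males, 296, 528 and 349.7 CPM in mutant females, and 294, 264 and 292 CPM in mutant males. Gabra2, an alpha subunit of synaptic receptors, was at 96.2, 74.5 and 85.6 CPM in wild-type females, 89.6, 96.8 and 96.2 CPM in wild-type males, 91.4, 196 and 116 CPM in mutant females, and 92.4, 76.1 and 101 CPM in mutant males. The highest value of both genes was in female mutant 3. Without it their log2 fold changes were 0.11 (SE 0.080) and 0.09 (SE 0.101). Gabra4 and Gabrb1 are neighbours on chromosome 5 that are read away from each other and share 46 exon bases on opposite strands, 0.756% of the exon bases of Gabra4.

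Gabrd, the delta subunit of tonic, extrasynaptic receptors, was at 36.7, 45.3 and 49.2 CPM in wild-type females and 40.3, 44.7 and 34.3 CPM in wild-type males. It was at 38.7, 29.8 and 30.0 CPM in mutant females and 39.6, 41.0 and 36.3 CPM in mutant males, so 2 mutant females lay below the other 10 mice. The log2 fold change was -0.21 (SE 0.116), edgeR adjusted p 0.950. Gabrb2, the beta subunit with the highest level, was at 279, 251, 258, 257, 272 and 247 CPM in wild type and at 237, 290.0, 219, 259, 267 and 225 CPM in mutants, females first. Its mutant range enclosed the wild-type range. Gabra5, an alpha subunit best known from the hippocampus, and Gabrg1 ran from 55.5 to 87.0 and from 26.9 to 36.2 CPM in wild type, and from 61.6 to 97.3 and from 28.7 to 38.3 CPM in mutants.

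Of the 5 GABA-B receptor genes, 3 were above wild type and 2 below, and 0 passed the test. Without female mutant 3 the split was 2 above and 3 below. The log2 fold change of Gabbr2 was 0.12 (SE 0.131) with that library and -0.01 (SE 0.064) without it. That of Kctd8 was 0.30 (SE 0.288) and 0.03 (SE 0.162). Gabbr1 was at 735, 719 and 812 CPM in wild-type females and 732, 759 and 699 CPM in wild-type males. It was at 725, 558 and 695 CPM in mutant females and 706, 658 and 683 CPM in mutant males. The genotypes overlapped in both sexes, and the log2 fold change was -0.15 (SE 0.079, edgeR adjusted p 0.950), or -0.09 (SE 0.051, adjusted p 0.735) without female mutant 3. Gabbr2 was at 387, 405, 392, 458, 404 and 387 CPM in wild type, and at 408, 678, 446, 401, 364 and 385 CPM in mutants, females first. Only female mutant 3, at 678 CPM, lay outside the range of the other 11 mice by more than the range itself. Kctd8 was at 7.52, 6.23, 9.39, 9.36, 6.78 and 6.04 CPM in wild type, and at 10.1, 26.3, 7.48, 6.83, 8.41 and 5.27 CPM in mutants, with 26.3 CPM again in female mutant 3. Kctd12 and Kctd16, auxiliary subunits like Kctd8, had log2 fold changes of 0.08 and -0.11. Genes on the opposite strand overlap 62.8% of the Kctd12 and 10.4% of the Kctd16 exon bases, so these counts may include antisense reads.

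The chloride transporter genes set the response of GABA-A receptors, since an open channel lets chloride run along the gradient they build. Slc12a5 was at 524, 567 and 526 CPM in wild-type females and 415, 557 and 487 CPM in wild-type males. It was at 445, 229 and 420.2 CPM in mutant females and 515, 519 and 540.1 CPM in mutant males. The 3 mutant females lay below the 3 wild-type females, while the male groups overlapped. Slc12a2 was 125 to 174 CPM in wild type and 109 to 213 CPM in mutants. Over both sexes their log2 fold changes were -0.22 (SE 0.168) and 0.06 (SE 0.140), with edgeR adjusted p of 0.950 and 0.966. Without female mutant 3 they were -0.08 (SE 0.092) and -0.05 (SE 0.103), so that of Slc12a2 turned sign.

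None of the 5 genes of scaffolds and receptor assembly passed the test, 1 being above wild type and 4 below. Their log2 fold changes ran from -0.23 to 0.01. Without female mutant 3 they ran from -0.07 to 0.08, with 2 above, Gabarap and Shisa7, and 3 below. Gphn, which encodes gephyrin, the scaffold under inhibitory synapses, was at 77.7, 75.8, 83.2, 78.3, 80.0 and 76.8 CPM in wild type, and at 80.5, 99.9, 80.8, 74.7, 71.9 and 70.0 CPM in mutants, females first. The 3 mutant males lay below the 3 wild-type males, and the mutant females did not. Gabarap, whose product binds GABA-A receptors and also acts in autophagy, was at 84.5, 85.7, 83.7, 72.04, 83.9 and 80.2 CPM in wild type and at 83.5, 25.6, 88.1, 82.6, 92.3 and 83.6 CPM in mutants. Its value of 25.6 CPM in female mutant 3 was the only one under 72.04 CPM. Nlgn2, an adhesion molecule of inhibitory synapses, and Lhfpl4, which anchors GABA-A receptors to it, were lowest in the same library, at 77.8 and 49.6 CPM against at least 182 and 83.3 CPM elsewhere. Shisa7, an auxiliary subunit of GABA-A receptors, ran from 159 to 192 CPM in wild type and from 123 to 224 CPM in mutants.

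**Figure D3:**
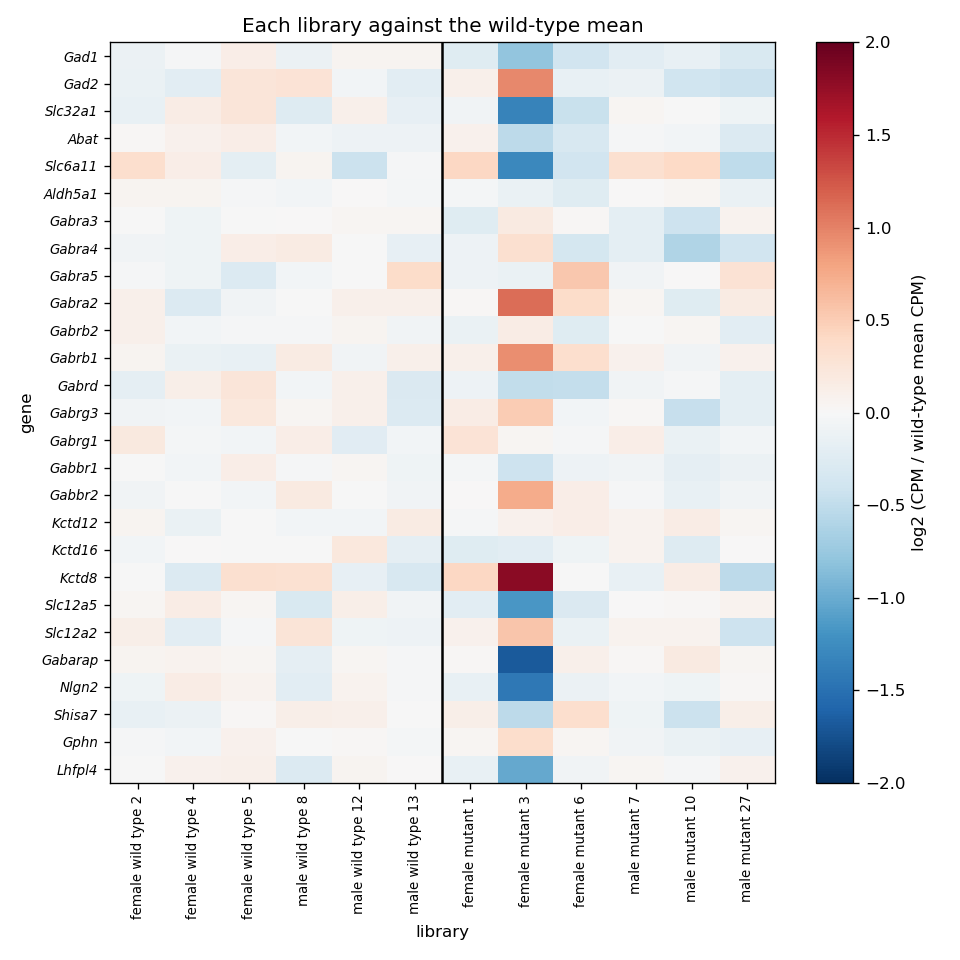
Each library's CPM against the wild-type mean for the 27 genes, as a log2 ratio from blue (lower) to red (higher), wild-type libraries left of the line and mutants right. The column of female mutant 3 holds the strongest colours in both directions, and the Gad1 row is blue in all 6 mutants.

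Within females, 0 of 27 genes were called by edgeR, as were 0.0% of all tested genes, with adjusted p of 0.418 to 0.962. At an unadjusted p under 0.05 there were 8 of 27, Gad1, Gabrb1, Gabra2, Slc12a5, Gabrd, Slc32a1, Gabbr2 and Abat, beside 11.8% of all tested genes, and DESeq2 had 9 beside 14.4%. The count was 7 of 27 without female mutant 3, beside 9.41%. Gabra2, Gabbr2 and Abat were then no longer among them, while Shisa7 and Gabrb2 were. All 4 groups lend their spread to this fit. With females fitted alone, the edgeR count was 2 of 27, beside 670 of 17237 tested genes. It was also 2 of 27 in the 4-group fit without wild-type female 4, beside 829 of 18503. Log2 fold changes beyond 0.5 in either direction were found in 5 genes with all libraries and in 0 without female mutant 3. The share of all tested genes beyond 0.5 was not counted. That library differed by over 0.5 log2 from the mean of the other mutants in 16 of 27 genes. Among 11595 tested genes of at least 5 CPM, 60.1% did so. Slc12a5 was at -0.56 (SE 0.201) with that library and -0.32 (SE 0.107) without it, edgeR adjusted p 0.418 and 0.516. Gabrb1 moved from 0.56 (SE 0.178) to 0.29 (SE 0.102), Gabra2 from 0.63 to 0.28, Slc32a1 from -0.57 to -0.34 and Gad1 from -0.45 (SE 0.135) to -0.31 (SE 0.094). The ranges of the female groups did not overlap for 8 of 27 genes, beside 22.5% of all tested genes. Of these, Kctd16, Gad1, Aldh5a1, Slc12a5, Nlgn2 and Lhfpl4 were lower in mutants and Gabrb1 and Gabbr2 higher. Without female mutant 3, 11 of 27 did not overlap, 8 lower and 3 higher, beside 30.1% of all tested genes.

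Within males, 0 of 27 genes were called by edgeR, as were 0.0% of all tested genes, and every adjusted p was 0.9999. At an unadjusted p under 0.05 there was 1 of 27, Gabra4, beside 2.78% of all tested genes, and DESeq2 had 1 beside 2.68%. All groups lend their spread to this fit, and leaving out female mutant 3 gave 3 of 27, Gabra4, Gad1 and Gad2, beside 8.43%, and the edgeR adjusted p ran from 0.536 to 0.987. Gabra4 had a log2 fold change of -0.39 (SE 0.167), Gad1 -0.22 (SE 0.135), Gabra3 -0.20 (SE 0.135) and Gad2 -0.32 (SE 0.251). With male mutant 10 and female mutant 3 left out, Gabra4 was at -0.30 (SE 0.116, edgeR adjusted p 0.861) and Gad1 at -0.26 (SE 0.095, adjusted p 0.861). The male ranges did not overlap for Gabra4, Gad1 and Gphn, all lower in mutants, which is 11.1% of the 27 genes beside 13.5% of all tested genes. The same 3 genes did not overlap without male mutant 10, beside 21.1% of all tested genes.

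**Figure D4:**
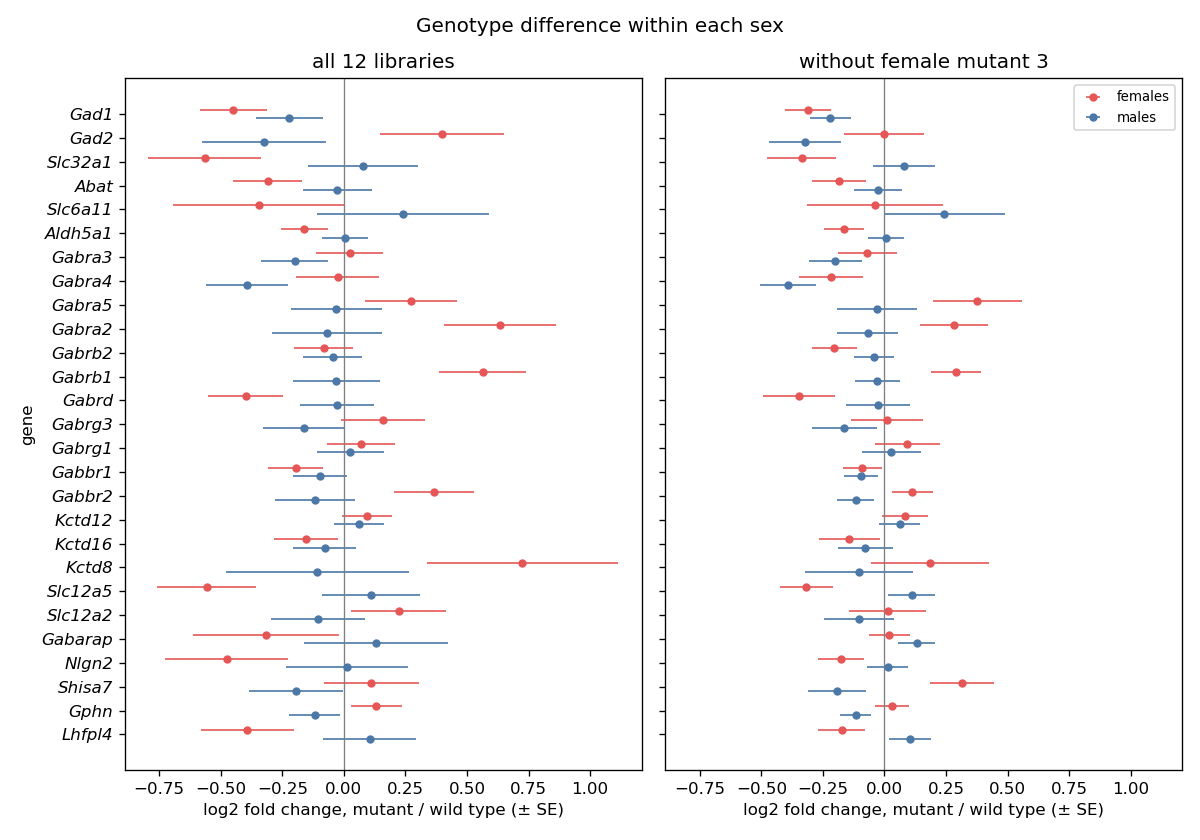
Log2 fold change of mutant over wild type with its SE for the 27 genes in females and males, with all 12 libraries on the left and without female mutant 3 on the right. The 5 female estimates beyond 0.5 on the left lie nearer 0 on the right, where none is beyond 0.5. Some others, among them Shisa7 and Gabra5, lie further from 0 on the right. Gad1 is negative in both sexes in both panels.

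The genotype difference itself was compared between the sexes as an interaction. None of the 27 genes was called by edgeR, as were 0.0% of all tested genes, with adjusted p of 0.555 to 0.937. At an unadjusted p under 0.05 there were 3 of 27, Gabrb1, Slc12a5 and Gabra2, beside 7.67% of all tested genes, and DESeq2 had 3 beside 9.59%. Leaving out female mutant 3 gave 5 of 27, Slc12a5, Shisa7, Gabrb1, Slc32a1 and Lhfpl4, beside 10.6%. The male minus female difference in log2 fold change was 0.67 (SE 0.284) for Slc12a5 and 0.43 (SE 0.143, edgeR adjusted p 0.459) without female mutant 3. It was -0.59 (SE 0.251) for Gabrb1, -0.70 (SE 0.319) for Gabra2 and -0.49 (SE 0.230) for Gabbr2. These 3 were smaller without female mutant 3, at -0.32 (SE 0.137), -0.35 (SE 0.186) and -0.23 (SE 0.113). For Gad1 it was 0.23 (SE 0.191, edgeR adjusted p 0.609), and 0.09 (SE 0.125) without that library. The sign of the genotype difference was the same in both sexes for 9 of 27 genes, and for 11 without female mutant 3. The share over all tested genes was not counted, so these counts cannot be called particular to the 27.

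Between males and females over both genotypes, 0 of 27 genes were called by edgeR, beside 0.0389% of all tested genes (7 genes), with adjusted p of 0.897 to 0.999. An unadjusted p under 0.05 was found for 0 of 27 beside 1.77% of all tested genes, and DESeq2 also had 0 beside 2.78%. The count was also 0 of 27 without female mutant 3, beside 2.67%. Gabrg3, a gamma subunit, was at 51.9, 52.6, 63.1, 60.2, 77.1 and 52.3 CPM in females and at 55.8, 58.2, 45.2, 55.1, 39.5 and 47.7 CPM in males, wild type first. The male minus female log2 difference was -0.23 (SE 0.125) for Gabrg3, -0.13 (SE 0.080) for Gphn, -0.47 (SE 0.288) for Kctd8 and -0.32 (SE 0.202) for Gad2. With female mutant 3 left out these were -0.16, -0.08, -0.20 and -0.11, and over all 27 genes the differences then ran from -0.20 to 0.06.

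Markers of striatal projection neurons differed between libraries of the dissected cortex. The summed level of 12 such markers ran from 732 to 2347 CPM in wild type and from 411 to 1151 CPM in mutants, and none was at 0 in all libraries. All 12 had a negative log2 fold change, with a median of -0.79 and 0 called by edgeR. Of the 12, 8 had an unadjusted p under 0.05 beside 3.96% of all tested genes, and 10 without female mutant 3 beside 7.46%. Because striatal neurons use GABA, the 27 genes were set against the mean log2 CPM of these markers in a fit with sex and genotype as terms. With all libraries, 0 of 27 slopes were called by edgeR beside 0.144% of all tested genes, and 1 of 27, Gabrg3, had an unadjusted p under 0.05 beside 3.49%. The list itself is part of all tested genes, and 9 of its 12 members were among the called.

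Gabrg3 had a slope of 0.28 (SE 0.096) on the log2 scale per log2 unit of striatal markers, edgeR adjusted p 0.9999. Without female mutant 3 the slope was 0.27 (SE 0.052) and was called, adjusted p 0.0419, as 1 of 27 beside 0.542% of all tested genes. Without both female mutant 3 and male mutant 10, the library of lowest striatal level, it was 0.24 (SE 0.061) and not called, adjusted p 0.197. In that edgeR fit 6 of 27 slopes had an unadjusted p under 0.05, beside 1128 of 18266 genes, and 0 of 27 were called. Limma-voom with library weights called 2 of 27, Gabrg3 and Gabra4, beside 3.25% of all tested genes, and 3 of 27 with Gad2 added, beside 3.03%, without female mutant 3. DESeq2 without female mutant 3 called 1 of 27, Gabrg3, beside 1.28%. The edgeR slope of Gabra4 was 0.21 (SE 0.112) and that of Gad1 0.03 (SE 0.096).

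**Figure D5:**
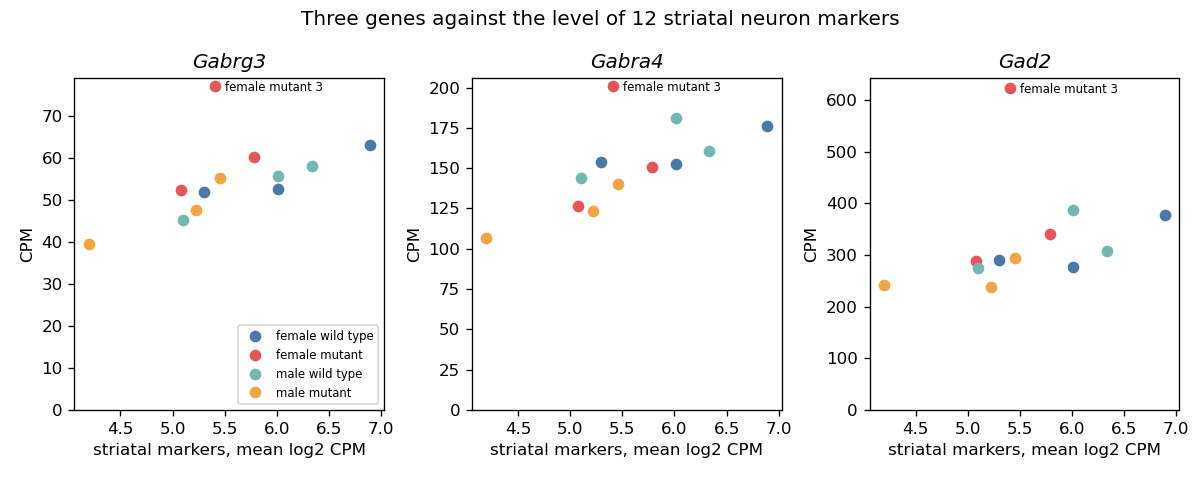
CPM of Gabrg3, Gabra4 and Gad2, the genes called in at least 1 slope fit, against the mean log2 CPM of 12 striatal markers, 1 point per library coloured by group. Gabrg3 runs from 39.5 CPM in the library of lowest striatal level upward, and female mutant 3 lies above the other points in all 3 panels.

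Markers of cortical interneurons, the GABA neurons of the cortex, had mutant means on both sides of wild type. Of 13 tested, 7 had a positive and 6 a negative log2 fold change, with a median of 0.00 and 0 called by edgeR. Without female mutant 3, 5 of the 13 were positive and 8 negative, with a median of -0.02 and 0 called. Their summed level was 515 to 563 CPM in wild type and 442 to 536 CPM in mutants, or 472 to 536 CPM without female mutant 3, and none was at 0 in all libraries. Lamp5, a marker of neurogliaform cells that excitatory neurons also express, averaged 140.2 ± 18.8 CPM across wild-type and 107 ± 15.3 CPM across mutant mice (SD, n = 6 each), a log2 fold change of -0.39 (SE 0.117) with an edgeR adjusted p of 0.950. Wild-type and mutant means were 128 and 121 CPM for Reln, 75.0 and 74.5 for Sst, 33.9 and 38.8 for Pvalb, and 20.7 and 24.3 for Vip. Without female mutant 3 the mutant means were 130, 80.7, 38.5 and 18.9 CPM for these genes, and 110 CPM for Lamp5. The mutant means of Pvalb and Reln included 65.5 and 168 CPM in male mutant 10, the highest of the 12 libraries for both genes. The part of interneuron number in the Gad1 values was not tested.

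Another 40 genes of the GABA pathway, outside the 27, were taken as a list, of which 37 were tested. None was called by edgeR, 18 had a positive and 19 a negative log2 fold change, and the median was 0.00 against -0.01 over all tested genes. An unadjusted p under 0.05 was found for 2 of 37 beside 3.96% of all tested genes, and for 5 without female mutant 3 beside 7.46%. Gabrq, the theta subunit of GABA-A receptors, had a median of 5.55 CPM over the 6 wild-type mice and 8.56 CPM over the 6 mutants, a log2 fold change of 0.81 (SE 0.248) with an edgeR adjusted p of 0.950. Its mutant range of 7.61 to 15.5 CPM overlapped the wild-type range of 3.68 to 8.91 CPM. Igsf9b, an adhesion molecule of inhibitory synapses, averaged 146 ± 11.5 CPM across wild-type and 124 ± 13.1 CPM across mutant mice. Gabrr2, a rho subunit best known from the retina, averaged 0.816 ± 0.342 and 0.574 ± 0.379 CPM. Its value in female mutant 3 equalled the 1.1616 CPM that a count of 0 allows there, and the mutant mean without that library was 0.456 CPM.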

How the data were processed

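Per the labels, RNA was isolated from 12 cortices with TriReagent and a column kit, and mRNA libraries were sequenced in pairs on a NovaSeq6000. The authors' deposited table holds raw read counts per Ensembl gene. Trimmomatic 0.36, HISAT2 2.1.0, HTSeq 0.11, Cufflinks and GRCm38.p6 are named in the submitters' processing notes; neither the strand setting nor the annotation release is given there. Identifiers were matched to GENCODE M21 (54165 of 54232).

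Genes were filtered with filterByExpr over the 4 groups, scaled by TMM and tested with edgeR 4.0.16 (R 4.3.3) by the quasi-likelihood test, adjusted by Benjamini-Hochberg over all 18016 genes and called at 0.05. Both-sex fits had sex and genotype as terms, and the fits within sex and the interaction had 1 mean per group. The SE is the log2 fold change divided by the square root of F. CPM use TMM-scaled totals, log2 CPM a prior count of 2, and levels per kb the union of exons. The procedure was tested on simulated data. The members and all lists were chosen with earlier results of these data known. Values in every library are given for the up to 4 genes of smallest p in each genotype and sex comparison and for the gene of highest level per kb in each role, ranges for the rest, and the 3 genes of smallest p in the wider pathway list. Dlx6os1 matched 2 identifiers and was left out of the interneuron list.

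Alternatives were DESeq2 1.42.0, limma-voom (limma 3.58.1) with and without library weights, RLE or library-total scaling, no low-count filter or one of 1 CPM in 6 libraries, a striatal covariate, no sex term, each sex alone, and omission of each library in turn. After seeing the data, DESeq2, weighted limma-voom and the striatal covariate were repeated without female mutant 3, and edgeR without female mutant 3 and male mutant 10 together.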

Additional observations from a re-analysis of the deposited data

Results flagged for a closer look

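Among the 27 genes in 2 genotype groups of 6 mice, 54 sets of values were examined for a highest or lowest library whose gap to its neighbour exceeded Dixon's 95% critical share of the whole range, a size that chance alone gives in about 1 set in 20. There were 12 such values, in 10 genes, and 9 of them were in female mutant 3, the library with 3748515 counts and 31.62% mitochondrial counts. In that library Gabra2 was at 196 CPM, Gabrb1 at 528 CPM, Gabbr2 at 678 CPM, Kctd8 at 26.3 CPM, Gad2 at 623 CPM and Gphn at 99.9 CPM, each above the other mutants. In the same library Nlgn2 was at 77.8 CPM, Lhfpl4 at 49.6 CPM and Gabarap at 25.6 CPM, each below the other mutants. The median size of the log2 ratio of female mutant 3 to the mean of the other mutants was 0.596 over the 27 genes and 0.654 over 11595 genes of at least 5 CPM. Among wild-type mice, male 13 stood above the others for Gabra5 at 87.0 CPM. Male 8 stood above the others for Gabbr2 at 458 CPM and below them for Lhfpl4 at 83.3 CPM.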

How the results depend on the processing

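No paired analysis was possible because no animal number occurs in more than 1 group. The number of the 27 genes called stayed at 0 under every alternative run for genotype in females, genotype in males, the interaction and sex. In females, DESeq2 with all libraries gave no adjusted p for 16072 of 18016 genes, 12 of the 27 among them, so its 0 covers the other 15 only. Over both sexes it was 0 except for 1 with DESeq2 without female mutant 3, which was Gad1. For the slope on striatal markers it was 2 with limma-voom with library weights, 1 with DESeq2 without female mutant 3, 3 with weighted limma-voom without female mutant 3, and 0 to 1 when each library was left out, the 1 being without female mutant 3. The cause was not tested. For the 4 genes of smallest p in each of the 6 comparisons, 24 values in all, the sign held under every alternative, and in 7 of the refits a value passed the threshold newly. Over all 27 genes, the sign turned under at least 1 alternative for 13 over both sexes, 9 in females, 14 in males, 8 in the interaction, 16 for sex and 14 for the slope. Scaling by library totals moved the median log2 fold change over both sexes to -0.08 for all genes and -0.15 for the 27, with 5 above and 22 below wild type, and in females to -0.21 for all genes. Depth limits female mutant 3 most, where a count of 0 allows 1.1616 CPM.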
